A study of Homo sapiens with 45 samples.

Results

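Clustered histone genes encode the core and linker histones that package newly copied DNA, and they lie in tight groups in the genome. They were taken as the protein-coding genes whose symbol in GENCODE release 29 starts with HIST1H, HIST2H, HIST3H or HIST4H, and 71 of the 58233 genes in the table met that rule. They comprise 6 genes for H1, the linker histone, and 17 for H2A, 18 for H2B, 15 for H3 and 15 for H4, the core histones. The HIST1 cluster holds 55 of them on chromosome 6 (GRCh38, positions 25726132 to 27893843) and the HIST2 cluster holds 12 on chromosome 1 (143905556 to 149887916). HIST3 holds 3 genes further along chromosome 1 (228424845 to 228460470), and HIST4 is a single gene, HIST4H4, on chromosome 12 (14767999 to 14771131).

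RNA selected for its poly(A) tail was sequenced from H9 cells, a long-established line of human embryonic stem cells, as they were driven in a monolayer towards motor neurons. All groups passed through the same pretreatment, in which the cells were made into neuromesodermal progenitors with CHIR99021 (a GSK3 inhibitor), bFGF, SB431542 and DMH1 (inhibitors of TGF-beta and BMP receptors) and the ROCK inhibitor Y-27632. On day 0 they were dissociated and replated in 100 nM retinoic acid (RA) and 500 nM SAG, a Smoothened agonist that switches on Hedgehog signalling, again with ROCK inhibitor at plating. Day 0 is labelled as the control, and days 1, 2 and 4 to 15 carry RA and SAG, so that time, treatment and replating changed together after day 0. Each of the 15 days has 3 libraries, 45 in total, all from 1 cell line. Nothing beyond the word biorep says how replicates were made, so p-values measure the spread between these samples, which may be technical. Day 3 was not analysed here. The library totals lay between 22835854 and 39066286 counts.

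Most messenger RNAs end in a poly(A) tail, but those of replication-dependent histone genes end just after a short stem-loop in the 3′ UTR. The stem-loop is bound by SLBP, and the cut behind it is made with the help of the U7 small nuclear ribonucleoprotein. Their transcription and stability are tied to S phase, the period of DNA replication. Some of the genes also have longer transcripts that run past the stem-loop to an ordinary polyadenylation signal, and such transcripts have been described in cells that have left the cell cycle. Replacement histones such as H3F3A, H3F3B and H2AFZ are made all through the cell cycle from polyadenylated messenger RNA. Poly(A) selection would therefore be blind to most histone messenger RNA, so all levels given here are those of the part that was captured.

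Stem-loop sequences are shown for members on which the results turn. The GENCODE 29 transcripts of 31 of the 71 members hold a match to the histone stem-loop motif, searched on the transcript strand in the 3′ UTR, against 32 of 19061 other genes (0.168%). Those other genes all had a 3′ UTR of at least 16 bases. Of the members without a match, 35 have models that stop with the coding sequence and could not show one, so the gene itself may still hold a stem-loop. In each line the 16 capitals mark the stem-loop and the small letters are up to 5 bases on either side.
HIST2H2BE: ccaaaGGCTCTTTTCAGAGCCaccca
HIST3H2A: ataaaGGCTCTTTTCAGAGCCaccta
HIST1H2AC: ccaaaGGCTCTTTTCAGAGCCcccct
HIST1H2BE: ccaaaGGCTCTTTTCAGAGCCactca
HIST1H2BD: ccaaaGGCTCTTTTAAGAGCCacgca
HIST1H2AG: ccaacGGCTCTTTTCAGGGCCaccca
HIST2H4B: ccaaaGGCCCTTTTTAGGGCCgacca
HIST1H4E: tcaaaGGCCCTTTTCAGGGCCgccca
HIST1H4B: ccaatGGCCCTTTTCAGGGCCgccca
The form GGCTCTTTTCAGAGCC was found in 17 members, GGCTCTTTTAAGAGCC in 5, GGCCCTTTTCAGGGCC in 5 H4 genes, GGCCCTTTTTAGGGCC in 3 H4 genes and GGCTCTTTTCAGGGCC in HIST1H2AG alone. In HIST2H2BE the loop starts 57 bases after the stop codon and the gene model runs on for 1729 bases behind it. HIST3H2A runs on for 390 bases, HIST1H2AC for 1114, HIST1H2AG for 1761, HIST2H4B for 690 and HIST1H4E for 1022. The model of HIST1H4B ends 86 bases behind its loop. On GRCh38, HIST2H2BE (ENSG00000184678) lies at chr1:149884459-149886652 on the minus strand and HIST3H2A (ENSG00000181218) at chr1:228456979-228457873 on the minus strand. On the plus strand of chromosome 6 lie HIST1H2AC (ENSG00000180573, chr6:26124145-26139116), HIST1H2BD (ENSG00000158373, chr6:26158146-26171349) and HIST1H2BE (ENSG00000274290, chr6:26172059-26184655). HIST1H3E (ENSG00000274750, chr6:26224199-26227473), for which no stem-loop match was found in the models, and HIST1H2BM (ENSG00000273703, chr6:27815044-27815424), whose model has no 3′ UTR, lie there too.

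By the longest 3′ UTR of their gene models, 25 members have a long 3′ UTR (over 150 bases), 11 a short one and 35 none at all, since their models stop with the coding sequence. A polyadenylation signal (AATAAA or ATTAAA on the transcript strand) stood in the last 40 bases of a model in 22 members, 19 of them with a long and 3 with a short 3′ UTR. These classes describe the annotation and not the RNA that was captured. They were set without the measured values, but with earlier results of these data known.

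Before the values are read, 2 libraries need naming. Day 4 replicate 2, which is also the shallowest library, and day 1 replicate 3 held far more clustered histone counts than the other libraries of their days. In CPM (counts scaled to library size with TMM factors), the 71 genes summed to 179, 656 and 330 in replicates 1, 2 and 3 of day 4 and to 273, 315 and 515 on day 1. The same libraries were high in small RNAs that carry no poly(A) tail, from a list of 14 chosen after the data were seen. RN7SK, the 7SK nuclear RNA, stood at 30.4, 159 and 72.0 CPM on day 4 and at 28.9, 38.8 and 60.9 CPM on day 1. RN7SL2, a signal recognition particle RNA, stood at 56.9, 481 and 46.5 CPM on day 4 and at 22.4, 48.1 and 248 CPM on day 1. In 10 of the 15 days the library highest in RN7SK was also the one highest in the summed members, and in 11 the library lowest in RN7SK was lowest in the members. For RN7SL2 this held in 5 and 6 of the 15 days. Among 3 libraries an unrelated RNA would match in 1 of 3 days by chance, so the RN7SL2 counts are near that level. Of the list only RN7SK and RN7SL2 were matched in this way, after the data were seen. The RN7SK counts are therefore a description and no test against chance. Replication genes were not high in these libraries, which had the lowest S phase sums of their days. The 25 S phase genes summed to 5440, 5130 and 5510 CPM on day 4 and to 7060, 7040 and 6990 CPM on day 1. The summed small RNAs did not follow the members on every day. In replicates 1, 2 and 3 of day 0 they summed to 79.2, 80.1 and 223 CPM, where the members summed to 124, 123 and 91.8 CPM. On day 11 they summed to 171, 119 and 291 CPM, where the members summed to 192, 192 and 136 CPM. The part of carried-over RNA without a poly(A) tail in the histone results was not tested. Counts of calls that rest on day 4 replicate 2 or day 1 replicate 3, and the changes of single members named in those comparisons, are given with and without them. For fits with a library left out the share over all genes is not given, so their counts cannot be set against a background.

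**Figure D1:**
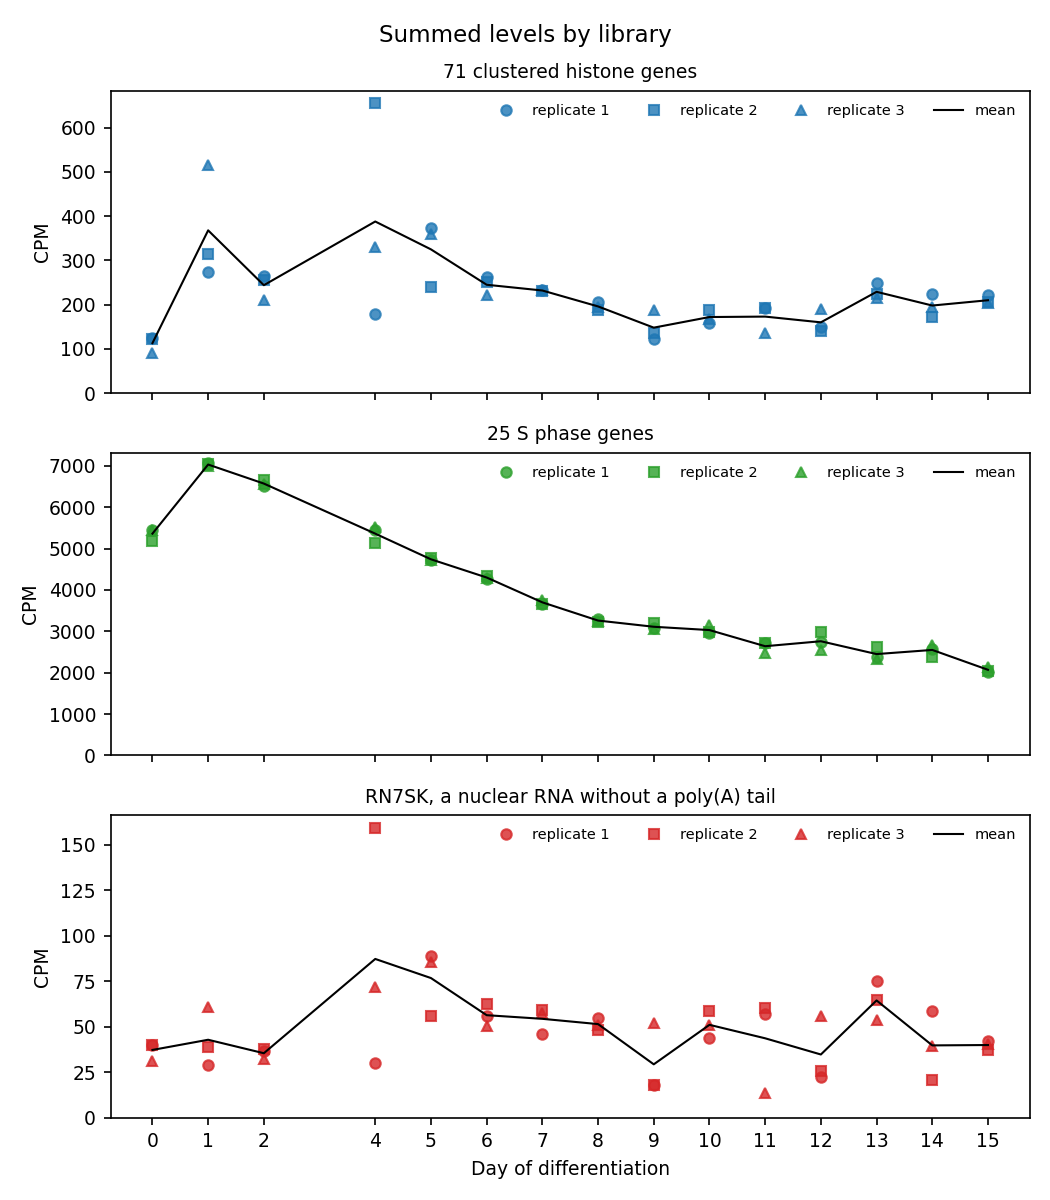
Summed CPM of the 71 clustered histone genes (top), of 25 S phase genes (middle) and of RN7SK alone (bottom) against the day of differentiation, with a symbol for each of the 3 libraries of a day and a line through the means. Day 4 replicate 2 stands at 656 CPM in the top panel and 159 CPM in the bottom panel, while its S phase sum of 5130 CPM lies below the 5440 and 5510 CPM of the other libraries of that day.

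Clustered histone genes were a small share of the captured RNA, and their mean sum was lowest on day 0 and highest on days 1, 4 and 5. The sum was 124, 123 and 91.8 CPM in the libraries of day 0, a mean of 113 ± 18 (SD, n = 3), and 368 ± 130 CPM on day 1. The mean of 388 ± 240 CPM on day 4 rests on replicate 2, as its libraries gave 179, 656 and 330 CPM. Replicate 1 of day 4 lay below all libraries of day 2, which gave 265, 255 and 211 CPM. The mean sum was 244 CPM on day 2, 325 on day 5, 245 on day 6 and 232 on day 7. By day 8 it had come to 205, 189 and 194 CPM (196 ± 8.5) and on day 9 to 123, 135 and 187 CPM. The libraries of day 15 gave 221, 206 and 203 CPM (210 ± 9.6), so the last day did not lie below day 8. The deposited TPM values, which are scaled for transcript length, summed to 350 ± 59 on day 0, 1130 ± 400 on day 1, 558 ± 30 on day 8 and 498 ± 28 on day 15. In bulk RNA, fewer cells in cycle and less captured histone RNA per cell cannot be told apart.

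A few members drew a large share of the counts. The 10 with the highest mean CPM over all libraries held 49.9% of the members' total, led by HIST2H2BE with 24.5 CPM, HIST3H2A with 12.2, HIST1H1C with 11.6 and HIST1H2BD with 10.4. Only these 4 had a mean of at least 10 CPM, 47 of 71 had at least 1 CPM, and 4 (HIST1H2AA, HIST1H4K, HIST2H3PS2 and HIST3H3) had no count in any library. Per length the order differs, because HIST2H2BE has a model of 2194 bases and many others have a coding sequence only. In mean TPM on day 1, HIST1H2BK stood at 97.8, HIST1H4J at 77.5, HIST1H1C at 60.2 and HIST2H2BE at 7.29. On day 15 the TPM of HIST1H2BK was 48.3, that of HIST1H4J 45.2, that of HIST3H2A 39.7 and that of HIST2H2BE 35.6.

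The filter on low counts kept 63 of the 71 members. HIST1H1T, HIST1H2AA, HIST1H2BA, HIST1H4F, HIST1H4G, HIST1H4K, HIST2H3PS2 and HIST3H3 did not pass it. HIST1H1T and HIST1H2BA are the testis forms of H1 and H2B. Of the 63, 60 differed between days in the edgeR quasi-likelihood F test over every day term (adjusted p under 0.05), where 91.5% of all 19436 genes tested did. The 3 not called were HIST1H2AK, HIST1H3D and HIST2H2AA4. By mean CPM, 27 members were highest on day 1, 22 on day 4, 3 on day 5 and 9 on days 13 to 15. The means of days 1 and 4 include the high libraries of those days.

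From day 0 to day 1 the captured RNA of clustered histone genes rose across all 5 families and all 4 clusters. Of the 63 tested members 56 rose and 0 fell, where 30.1% of all genes tested rose and 31.7% fell. The median log2 change was 1.55 over the members and 0.00 over all genes. The rise was at least 2-fold in 52 members, where 10.6% of all genes rose and 10.4% fell by as much. H2B was the family in which every tested member rose, 17 of 17, beside 14 of 16 for H2A, 11 of 12 for H4, 10 of 13 for H3 and 4 of 5 for H1. All 25 members with a long 3′ UTR rose, as did 23 of 29 with none and 8 of 9 with a short one.

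HIST1H2BK, an H2B gene with a coding-only model, was 4.36, 4.25 and 2.91 CPM in the libraries of day 0 and 14.6, 15.5 and 24.2 CPM on day 1. The 3 later libraries all lie above the 3 earlier ones, and the log2 change was 2.23 ± 0.30 (SE, adjusted p = 7.5e-08). HIST1H1C, which encodes linker histone H1.2, went from 7.45, 6.85 and 5.76 CPM to 15.7, 16.9 and 31.8 CPM, a log2 change of 1.67 ± 0.33 (adjusted p = 4.6e-05). HIST1H4E was 5.36, 5.75 and 4.12 CPM on day 0 and 16.6, 17.6 and 28.0 CPM on day 1 (2.02 ± 0.45, adjusted p = 0.00027). In these genes replicate 3 of day 1 was the highest library, as in the sum. HIST3H2A, an H2A gene of the small HIST3 cluster, does not share that pattern, with 2.63, 2.78 and 2.14 CPM on day 0 against 4.74, 4.42 and 4.59 CPM on day 1 (0.86 ± 0.14, adjusted p = 7.3e-07). Its neighbour HIST3H2BB rose from 0.485, 0.306 and 0.279 CPM to 1.73, 1.63 and 2.90 CPM (2.52 ± 0.30, adjusted p = 2.1e-09). Other large rises were those of HIST1H2BO (2.78 ± 0.58), HIST1H2BM (2.53 ± 0.54) and HIST2H3A (2.49 ± 0.44), and HIST4H4 rose by 1.22 ± 0.33.

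With day 1 replicate 3 left out, 47 members rose and 0 fell. The members named above were all called without it, most with smaller log2 changes: HIST1H2BK 1.98, HIST1H1C 1.29, HIST1H4E 1.76, HIST3H2A 0.87, HIST3H2BB 2.23, HIST1H2BO 2.43, HIST1H2BM 1.91, HIST2H3A 2.07 and HIST4H4 0.94. RN7SK was 31.5 to 40.2 CPM in the libraries of day 0 and 28.9 CPM or more in those of day 1. The members summed to at most 124 CPM on day 0 and to at least 273 CPM on day 1. Of the 10 small RNAs tested 1 rose and 0 fell, and their list summed to 79.2, 80.1 and 223 CPM on day 0 and to 69.5, 117 and 476 CPM on day 1. The part of carried-over RNA without a poly(A) tail in this rise was not tested.

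Between day 1 and day 4 few members changed. Of the 63 tested, 4 rose and 3 fell, where 24.4% of all genes rose and 22.8% fell, and the median log2 change was -0.05. By at least 2-fold 1 rose and 1 fell, where 7.56% and 6.04% of all genes did. HIST3H2A rose from 4.74, 4.42 and 4.59 CPM to 6.92, 7.51 and 6.44 CPM (0.60 ± 0.12, adjusted p = 8.3e-05), without overlap between the days. HIST2H2BE, the main H2B gene of the HIST2 cluster by counts, went from 6.87, 7.73 and 15.4 CPM to 11.6, 31.2 and 16.7 CPM (0.99 ± 0.24, adjusted p = 0.00075), with overlapping libraries. HIST2H2AC and HIST2H4A also rose, by 0.55 and 1.02 on the log2 scale. HIST1H1A, a linker histone gene (-1.54 ± 0.58), HIST3H2BB (-0.82 ± 0.26) and HIST4H4 (-0.86 ± 0.33) fell. HIST2H2AC, HIST2H4A and HIST1H1A are named here because so few were called, after their values were seen.

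This stage depends on single libraries. Without day 4 replicate 2, 2 members rose and 17 fell; without day 4 replicate 1, the lowest library of that day, 9 rose and 0 fell. Without day 1 replicate 3, 6 rose and 0 fell. HIST2H2BE (0.53, adjusted p = 0.034) and HIST3H2A (0.55, adjusted p = 0.001) rose without day 4 replicate 2 as well, while HIST2H2AC (0.37, adjusted p = 0.24) and HIST2H4A (0.09, adjusted p = 0.88) were not called. HIST1H1A (-1.10, adjusted p = 0.17), HIST3H2BB (-0.53, adjusted p = 0.12) and HIST4H4 (-0.57, adjusted p = 0.21) were not called without day 1 replicate 3.

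With all libraries in, most members fell from day 4 to day 8 and 2 rose, but far fewer fell without day 4 replicate 2. Of the 63 tested, 47 fell and 2 rose, where 26.0% of all genes fell and 27.1% rose, and the median log2 change was -1.27 against 0.00 over all genes. The fall was at least 2-fold in 42 members, where 3.43% of all genes fell and 10.0% rose by as much. The members that fell numbered 13 of 17 in H2B, 10 of 16 in H2A, 10 of 13 in H3, 10 of 12 in H4 and 4 of 5 in H1. HIST1H2BM was 1.11, 7.10 and 2.69 CPM on day 4 and 0.776, 0.536 and 0.573 CPM on day 8, which do not overlap (-2.49 ± 0.56, adjusted p = 0.00033). HIST1H2BI (-2.08 ± 0.45), HIST1H4I (-1.97 ± 0.36) and the twin genes HIST2H3A and HIST2H3C (-2.05 ± 0.41) fell without overlap too. All of these were called without day 4 replicate 2, but with smaller log2 changes: -1.59 for HIST1H2BM (adjusted p = 0.017), -1.47 for HIST1H2BI (0.0069), -1.04 for HIST1H4I (0.0023) and -0.96 for HIST2H3A and HIST2H3C (0.018).

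Those that rose were HIST3H2A and HIST2H2BE. HIST3H2A was 6.92, 7.51 and 6.44 CPM on day 4 and 12.9, 12.8 and 13.5 CPM on day 8 (0.91 ± 0.11, adjusted p = 3.9e-09). HIST2H2BE reached 26.4, 26.8 and 29.7 CPM on day 8 (0.50 ± 0.22, adjusted p = 0.049), where day 4 replicate 2 overlaps with 31.2 CPM. Without that library the log2 change of HIST2H2BE was 0.97 (adjusted p = 8e-05), and without day 4 replicate 1, the lowest of that day, it was 0.23 (adjusted p = 0.38).

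Without day 4 replicate 2, 20 members fell and 3 rose, so that most members fell holds only with that library. With all libraries, 26.0% of all genes tested fell and 27.1% rose. These shares are from another fit, so they are no background for the 20 and 3. HIST1H1E, for example, was 5.87, 39.5 and 13.3 CPM on day 4 and 6.29, 5.62 and 5.22 CPM on day 8 (-1.75 ± 0.52, adjusted p = 0.0052), and -0.74 (adjusted p = 0.23) without that library. Of the 10 small RNAs tested 4 fell and 0 rose between these days, and their list summed to 134, 962 and 148 CPM on day 4 and to 112, 88.2 and 98.6 CPM on day 8.

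From day 8 to day 15 every member that rose had a gene model with a long 3′ UTR, and most that fell had a short one or none. Of the 63 tested, 9 rose and 17 fell, where 24.9% of all genes rose and 25.8% fell, so the share that fell was near the background and the share that rose below it, and the median log2 change was -0.71. By at least 2-fold 4 rose and 15 fell, where 7.64% and 4.59% of all genes did. Among the 25 members with a long 3′ UTR 9 rose and 2 fell (median 0.29), among the 29 with none 0 rose and 11 fell (median -1.21), and among the 9 with a short one 0 rose and 4 fell (median -0.74). The split by polyadenylation signal largely repeats this one, because a model without a 3′ UTR cannot hold a signal, and it is no separate support. The same 9 members rose, out of 22 with a signal near the end of a model, and 3 of these fell. Of the 41 without a signal 0 rose and 14 fell. The difference between the classes was not tested.

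**Figure D2:**
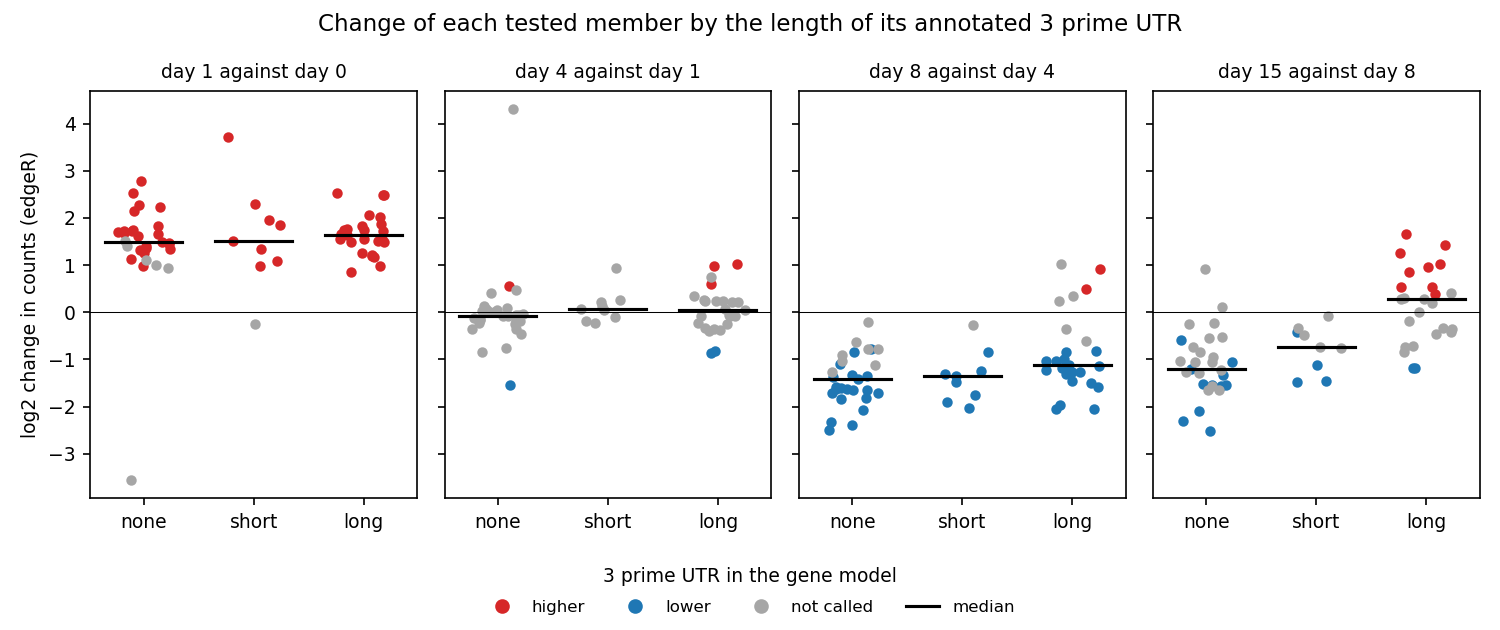
Log2 change in counts (edgeR) of each of the 63 tested members in 4 comparisons of days, grouped by whether the gene model has no, a short or a long 3′ UTR, with red for members that rose, blue for members that fell, grey for those not called and a bar at the group's median. The groups lie at like heights for day 1 against day 0 (medians 1.49, 1.51 and 1.64), and for day 15 against day 8 the long group lies above 0 (0.29) and the others below (-1.21 and -0.74).

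HIST1H2AC, an H2A gene with 1114 bases of model behind its stem-loop, showed the largest rise. It was 3.25, 2.99 and 3.72 CPM on day 8 and 10.0, 11.2 and 10.0 CPM on day 15, and the days do not overlap (1.65 ± 0.19, adjusted p = 1.7e-09). HIST1H3E, an H3 gene with a long model, went from 5.31, 3.92 and 4.84 CPM to 12.7, 12.8 and 12.0 CPM (1.42 ± 0.18, adjusted p = 1.5e-08), and HIST1H3H from 1.58, 1.35 and 1.91 CPM to 3.83, 3.61 and 4.18 CPM (1.26 ± 0.21, adjusted p = 3.2e-06). Among the H2B genes HIST1H2BD went from 8.08, 7.25 and 7.99 CPM to 16.2, 13.3 and 12.5 CPM (0.85 ± 0.26, adjusted p = 0.0076). All 3 later libraries again lie above the earlier ones. HIST1H2BE went from 3.19, 2.65 and 2.80 CPM to 5.54, 6.16 and 5.03 CPM (0.95 ± 0.38, adjusted p = 0.034), where limma on log2(TPM + 1) gave -0.72 (adjusted p = 0.2). HIST2H2BE reached 42.2, 40.7 and 37.2 CPM (0.53 ± 0.21, adjusted p = 0.03). HIST3H2A reached 17.0, 18.7 and 15.2 CPM (0.38 ± 0.10, adjusted p = 0.0017), and HIST1H2AG (0.54 ± 0.22) and HIST2H4B (1.02 ± 0.42) complete the 9.

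Most members that fell were of low level by then. An exception was HIST1H4J, among the 10 highest members by counts, which went from 8.62, 8.95 and 9.36 CPM to 7.54, 6.58 and 5.89 CPM (-0.43 ± 0.18, adjusted p = 0.044). Its libraries do not overlap, but its adjusted p was 0.067 to 0.18 in 5 of the 6 cases in which a library of these days was left out. HIST1H3B, an H3 gene with a coding-only model, was 1.82, 1.86 and 1.69 CPM on day 8 and 0.638, 0.632 and 0.562 CPM on day 15 (-1.55 ± 0.55, adjusted p = 0.019). HIST1H4B, whose model ends soon after the stem-loop, went from 1.49, 1.27 and 1.24 CPM to 0.435, 0.474 and 0.513 CPM (-1.48 ± 0.42, adjusted p = 0.0031). The linker histone genes HIST1H1E, from 6.29, 5.62 and 5.22 CPM to 2.26, 1.71 and 2.25 CPM (-1.46 ± 0.59, adjusted p = 0.04), and HIST1H1B, from 3.73, 3.25 and 2.45 CPM to 1.10, 1.11 and 1.49 CPM (-1.34 ± 0.57, adjusted p = 0.048), fell as well. In each of these genes every library of day 15 lies below every library of day 8. HIST1H2BO, with a change of -1.54 ± 0.66 (adjusted p = 0.05), was at the threshold.

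RN7SK stood at 55.1, 48.3 and 51.2 CPM on day 8 and at 42.3, 37.4 and 40.4 CPM on day 15, and 0 of the 10 small RNAs tested was called between these days. Leaving out any library of days 8 and 15 gave 6 to 8 members that rose and 7 to 12 that fell, and HIST2H2BE then had an adjusted p of 0.061 to 0.08 in 4 of the 6 cases, with log2 changes of 0.50 to 0.53.

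Over the whole treated period, day 15 against day 1, most members fell and 6 rose. Of the 63 tested, 49 fell and 6 rose, where 35.1% of all genes fell and 39.4% rose, and the median log2 change was -2.03 against 0.05 over all genes. By at least 2-fold 48 fell and 5 rose, where 13.6% and 20.8% of all genes did. This comparison shares its libraries with the others and is no separate evidence for them. HIST1H2BM was 2.62, 3.72 and 8.52 CPM on day 1 and 0.377, 0.184 and 0.342 CPM on day 15, a fitted fold of 16.1 (log2 change -4.01 ± 0.61, adjusted p = 4e-07). Among members with a mean of at least 1 CPM on day 1, HIST1H2AJ (-3.99 ± 0.72), HIST1H3I (-3.85 ± 0.62), HIST1H2BO (-3.46 ± 0.61) and HIST1H3A (-3.34 ± 0.69) followed, all with coding-only models. All 5 tested H1 genes fell, with a median of -3.04, and so did HIST4H4 (-2.08 ± 0.35).

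The 6 that rose were HIST2H2BE (2.03 ± 0.23, adjusted p = 1.3e-09), HIST3H2A (1.89 ± 0.11, adjusted p = 5e-18), HIST2H4B (1.97 ± 0.46, adjusted p = 0.0003), HIST1H2AC (1.65 ± 0.19, adjusted p = 8e-10), HIST1H3E (1.42 ± 0.18, adjusted p = 7e-09; -0.08 on the log2(TPM + 1) scale with limma, adjusted p = 0.84) and HIST1H3H (0.44 ± 0.20, adjusted p = 0.046). HIST2H4B summed with HIST2H4A, which has the same coding sequence, rose by 0.88 ± 0.23. All 6 have a long 3′ UTR. Of the 25 members of that class 6 rose and 14 fell (median -1.06), while 27 of 29 without a 3′ UTR fell and 0 rose (median -2.85). Without day 1 replicate 3, 45 members fell and 7 rose. The log2 changes were then -3.37 for HIST1H2BM, -3.82 for HIST1H2AJ, -3.39 for HIST1H3I, -3.09 for HIST1H2BO, -2.95 for HIST1H3A and -1.78 for HIST4H4. Those of the members that rose were 2.46 for HIST2H2BE, 1.90 for HIST3H2A, 2.22 for HIST2H4B, 1.83 for HIST1H2AC, 1.77 for HIST1H3E and 0.58 for HIST1H3H, and all of these were called.

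HIST2H2BE and HIST3H2A were higher in each later day of the 4 consecutive comparisons. The mean of HIST2H2BE was 3.15 CPM on day 0, 10.0 on day 1, 19.8 on day 4, 27.6 on day 8, 34.3 on day 9 and 22.7 on day 10. HIST3H2A was 2.52, 4.58, 6.96, 13.1, 15.5 and 12.7 CPM on the same days, with its highest mean, 20.4 CPM, on day 13. HIST1H2AC has another course, between 1.39 and 3.36 CPM up to day 9 and then 4.21 CPM on day 10, 5.87 on day 11, 9.18 on day 13 and 10.4 on day 15.

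These changes moved the make-up of the captured histone RNA. Members with a long 3′ UTR held 51.4% ± 0.29 of the members' CPM on day 0, 63.6% ± 1.5 on day 8 and 77.5% ± 1.0 on day 15, and those with none held 29.3% ± 1.2, 20.4% ± 1.2 and 12.7% ± 0.94. In CPM the long class was 58.1 ± 9.6 on day 0, 125 ± 4.1 on day 8 and 163 ± 7.5 on day 15, and the class with none was 33.2 ± 6.5, 39.9 ± 3.9 and 26.7 ± 2.1. By cluster, the share of HIST1 was 80.6% on day 0, 63.7% on day 8 and 58.2% on day 15. That of HIST2 was 15.7%, 28.6% and 32.6%, and that of HIST3 was 2.55%, 7.37% and 8.84%. By family, H2B held 36.1% on day 0 and 45.7% on day 15, H2A 18.2% and 23.1%, H3 7.96% and 9.66%, H4 22.2% and 15.4%, and H1 15.5% and 6.05%. On day 9 replicates 1 and 2 had little RN7SK (18.1 CPM each, against 52.1 in replicate 3) and the class with no 3′ UTR at 15.1 and 16.1 CPM against 30.2, so the shares of that day are those of unlike libraries. The list of small RNAs as a whole went the other way on day 9, with sums of 227, 245 and 114 CPM in replicates 1, 2 and 3.

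**Figure D3:**
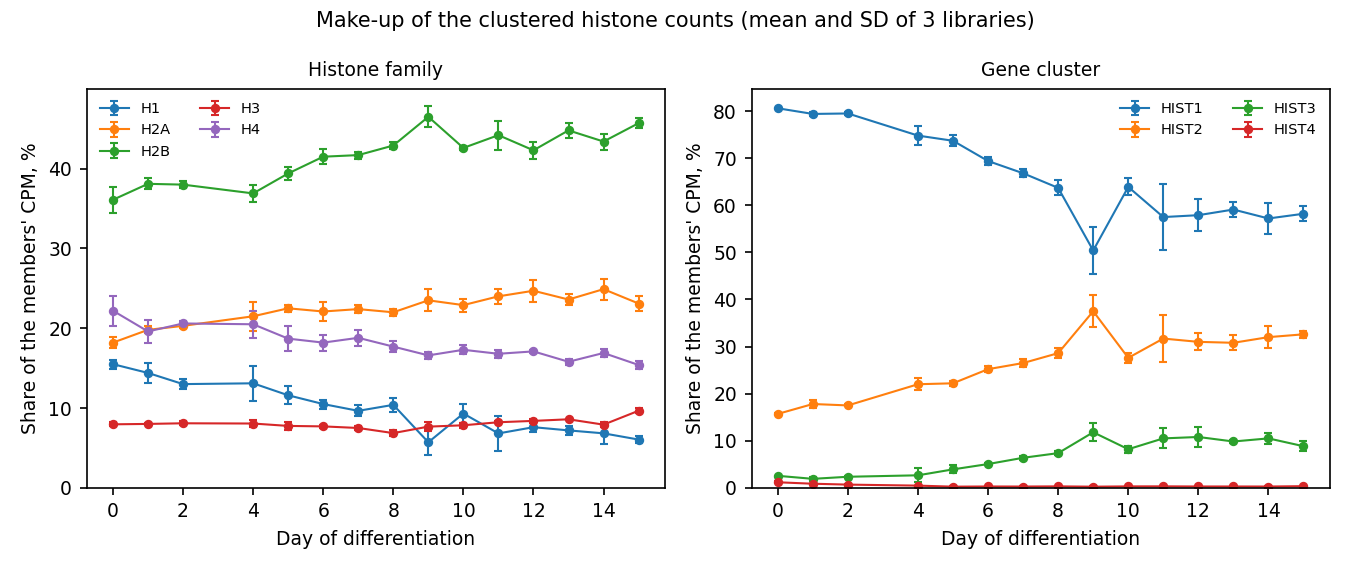
Share of the members' summed CPM held by each histone family (left) and each gene cluster (right) against the day, as mean and SD of 3 libraries. HIST1 comes down from 80.6% to 58.2% while HIST2 goes from 15.7% to 32.6%, and H1 comes down from 15.5% to 6.05% while H2B goes from 36.1% to 45.7%.

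For 5 members (HIST1H2BC, HIST1H2BD, HIST1H2BE, HIST1H3E and HIST1H3J) the deposited values also show how RSEM divided the reads between a shorter and a longer gene model. The ratio of expected counts to TPM gives the length that was divided by, and for 46 of 46 members with a single transcript this length was within 5% of that in GENCODE 29. In these members it places each library between the 2 models. HIST1H2BD has a model of 496 bases, which ends 39 bases behind the stem-loop, and a longer one of 789 bases, which ends elsewhere and holds no stem-loop match in its 3′ UTR of 384 bases. Both models have a polyadenylation signal near their end. The longer model took 2.43%, 4.35% and 3.90% of the gene's transcripts on day 0, 26.6%, 35.9% and 27.4% on day 8 and 73.5%, 70.4% and 69.2% on day 15. In TPM the longer model was 0.59 ± 0.16 on day 0, 2.21 ± 0.38 on day 1, 8.34 ± 0.64 on day 8 and 30.7 ± 4.8 on day 15. The shorter model was 16.2 ± 2.4, 52.2 ± 20, 19.8 ± 3.1 and 12.4 ± 0.55 TPM on these days. So the count of HIST1H2BD was alike on days 1 and 15 (14.6 and 14.0 CPM), but it was assigned to different models.

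HIST1H2BE has models of 497 and 2585 bases, of which the shorter ends 1 base behind the loop. The longer one has a 3′ UTR of 479 bases, so most of its added length lies outside the 3′ UTR. Its longer model took 1.21%, 0.283% and 1.48% on day 0, 13.2%, 13.5% and 11.0% on day 8 and 99.9%, 100% and 94.4% on day 15. In TPM it was 0.0614 ± 0.034, 0.959 ± 0.12 and 4.18 ± 0.46 on these days, while the shorter was 6.80 ± 1.9, 6.70 ± 0.66 and 0.0761 ± 0.13. HIST1H3E, with models of 462 and 2679 bases, had 9.57% ± 4.2, 49.2% ± 16 and 92.8% ± 9.7 on the longer, which was 0.344, 2.71 and 8.94 TPM. In HIST1H2BC, whose models of 571 and 659 bases are close in length, the longer took 7.94% ± 3.8 on day 0 and 46.7% ± 2.8 on day 15. In HIST1H3J, whose longer model is annotated as a processed transcript of 522 bases, no course could be read. Its longer model took 4.60% ± 4.2 on day 0, and only 1 library of day 15 had enough counts, with 12.0%. Because TPM divides by length, the TPM of HIST1H2BE was lower on day 15 than on day 8 (4.25 and 7.66), opposite to its counts.

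In the libraries that stand apart the excess lay mainly in the shorter models. On day 4 the shorter model of HIST1H2BD was 21.6, 90.9 and 42.6 TPM in replicates 1, 2 and 3, and the longer was 2.70, 2.49 and 4.32 TPM. For HIST1H2BE the shorter was 3.22, 45.7 and 15.9 TPM and the longer 0.462, 0.541 and 0.563 TPM. The longer models of HIST1H3E and HIST1H2BC were highest in replicate 2 of that day. HIST1H3E had 1.79, 2.40 and 2.09 TPM on the longer and 4.40, 23.3 and 9.21 TPM on the shorter model, and HIST1H2BC had 0.0146, 0.82 and 0.181 TPM on the longer and 6.18, 26.0 and 8.92 TPM on the shorter. On day 1 the shorter model of HIST1H2BD was 37.4, 43.7 and 75.4 TPM, against 1.77, 2.42 and 2.43 TPM for the longer, and the longer model of HIST1H3E was 1.43, 1.20 and 1.71 TPM. These splits are a description of RSEM's assignment, which rests on reads from the parts that the models do not share, and no test was made.

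**Figure D4:**
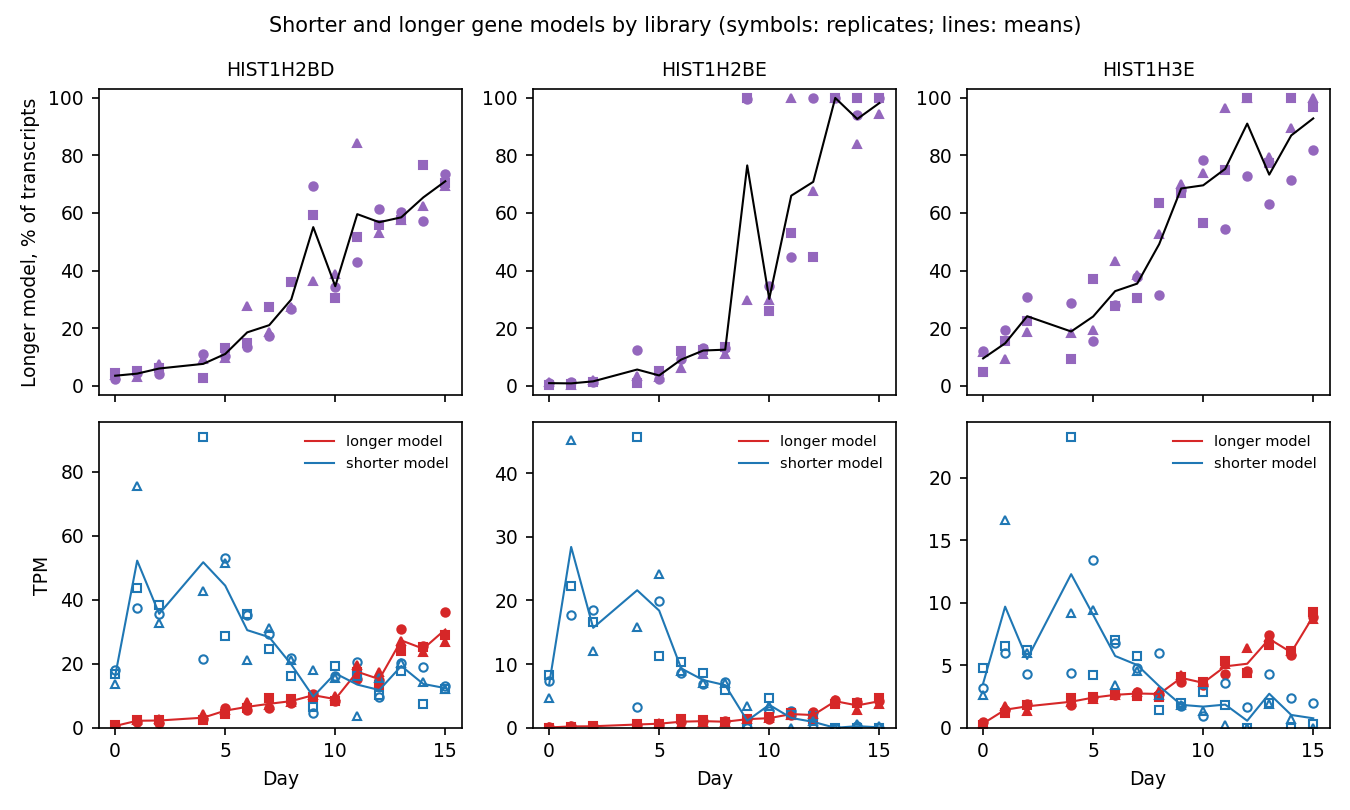
Share of transcripts assigned to the longer gene model (top, %) and TPM of the longer (red) and shorter model (blue) (bottom) for HIST1H2BD, HIST1H2BE and HIST1H3E against the day, with a symbol for each library and lines through the means. The share goes from means of 3.56%, 0.99% and 9.57% on day 0 to at least 69.2%, 94.4% and 81.8% in every library of day 15, and the high libraries of days 1 and 4 appear in the blue symbols.

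Some members cannot be told apart by their reads. In 16 of the 71 fewer than 50% of the 75-base stretches of their transcripts are unique to the gene among all GENCODE 29 transcripts, 16 overlap another gene, and 4 pairs have the same coding sequence. HIST2H2AA3 and HIST2H2AA4 show it: HIST2H2AA3 was 0, 3.15 and 0.774 CPM on day 0 where HIST2H2AA4 was 3.18, 0 and 1.83. Summed, the pair was 3.18, 3.15 and 2.60 CPM on day 0 and 12.5, 15.3 and 28.3 CPM on day 1 (2.63 ± 0.35, adjusted p = 7.5e-08). HIST2H4A and HIST2H4B together were 9.01, 9.71 and 9.90 CPM on day 8 and a mean of 15.2 ± 0.8 (SD) CPM on day 15 (log2 change 0.66 ± 0.23, adjusted p = 0.015). The pair thus rose, but by less than HIST2H4B by itself (1.02). From day 1 to day 15 the pair rose by 0.88 ± 0.23 (adjusted p = 0.0011), where HIST2H4B by itself rose by 1.97. In HIST2H4B 2.9% of the 75-base stretches are unique, so its own change depends on how RSEM shared reads with HIST2H4A. HIST2H3A and HIST2H3C have the same counts in every library, and HIST1H4K has none beside HIST1H4J. The pair sums were chosen after the data were seen.

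The promoters of the members carry motifs that differ by family. For 66 of the 71 genes RefSeq (GRCh38.p14) gives the 250 bases before and 50 bases after the start, and 4 motifs were searched on both strands without regard to overlaps. TATAAA stood in 45 of 66 (68.2%), against 11.5% of 35116 promoters of all genes, and CCAAT in 56 (84.8%) against 34.6%. All H1, H2A, H2B and H3 promoters held CCAAT, but 3 of 13 H4 promoters did. ATTTGCAT, the octamer bound by POU domain factors, stood in 11 of 16 H2A and 14 of 18 H2B promoters and in 0 of the other families (37.9% against 1.77%). AAACACA stood in all 6 H1 promoters, in 1 of H2A and in 2 of H3 (5.64% of all promoters). The promoters of HIST2H2BE, which rose to day 15, and of HIST1H2BM, which fell, are shown because these genes of 1 family went opposite ways, with the matches on either strand in capitals. The first is chr1:149886633-149886932 on the minus strand and the second chr6:27814772-27815071 on the plus strand, each 5′ to 3′ along the gene.
HIST2H2BE: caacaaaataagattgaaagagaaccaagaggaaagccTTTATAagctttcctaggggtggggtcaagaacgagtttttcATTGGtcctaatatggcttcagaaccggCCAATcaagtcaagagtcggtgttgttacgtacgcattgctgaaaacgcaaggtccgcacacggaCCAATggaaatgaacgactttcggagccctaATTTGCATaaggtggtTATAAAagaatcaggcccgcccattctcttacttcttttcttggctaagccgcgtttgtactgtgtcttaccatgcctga
HIST1H2BM: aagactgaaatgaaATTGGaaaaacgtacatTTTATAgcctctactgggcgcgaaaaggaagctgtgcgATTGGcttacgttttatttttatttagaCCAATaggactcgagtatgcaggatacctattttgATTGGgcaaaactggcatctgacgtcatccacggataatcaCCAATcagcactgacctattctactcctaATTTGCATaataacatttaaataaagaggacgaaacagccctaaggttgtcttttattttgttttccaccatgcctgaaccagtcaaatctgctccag
Both hold the CCAAT motif, the octamer and a match to TATAAA on one strand or the other. In HIST2H2BE a TATAAA reads along the gene behind the octamer. In HIST1H2BM the sole match is TTTATA, on the opposite strand and near the upstream end, so the 2 promoters differ in this. A match is a description of the letters and not a bound site.

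The genes around the histone genes were read from lists chosen with earlier results of these data known. The 25 S phase genes rose in 18 and fell in 0 cases from day 0 to day 1, and fell in 23, 25 and 24 cases in the 3 later steps, with 0 that rose. Their sum was 5360 ± 150 CPM on day 0, 7030 ± 35 on day 1, 5360 ± 200 on day 4, 3260 ± 41 on day 8 and 2070 ± 57 on day 15. MCM2, a subunit of the replicative helicase, fell by 2.04 ± 0.07 on the log2 scale from day 1 to day 15 and PCNA, the sliding clamp of DNA polymerase, by 1.27 ± 0.06. MKI67, a marker of cycling cells from the list of G2 and M phase genes, fell by 1.80 ± 0.07, and all 16 genes of that list fell. Between days 1 and 4, when 4 members rose and 3 fell, 23 of 25 S phase genes fell.

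Of 15 genes for 3′ processing of histone messenger RNA and for the histone locus body, 12 fell and 1 rose between day 1 and day 15 (median -0.47). SLBP, the stem-loop binding protein, was 67.8, 69.1 and 66.3 CPM on day 1 and 36.3, 35.9 and 38.6 CPM on day 15 (-0.88 ± 0.06, adjusted p = 2.3e-17). CCNE1, the cyclin that activates histone transcription with CDK2, was the largest fall (-1.96 ± 0.07), followed by CSTF2 (-0.93 ± 0.05) and CPSF3, the nuclease that cuts the transcripts (-0.75 ± 0.05). The U7 proteins went apart, with LSM11 higher (0.30 ± 0.08, adjusted p = 0.0014) and LSM10 lower (-0.28 ± 0.09, adjusted p = 0.0063), though LSM10 was 0.01 higher on the log2(TPM + 1) scale with limma (adjusted p = 0.92). NPAT, the coactivator at the histone locus body, was 27.0, 29.2 and 26.1 CPM on day 1 and 28.8, 26.5 and 29.2 CPM on day 15 (0.03 ± 0.07, adjusted p = 0.68). From day 8 to day 15 SLBP changed by -0.12 ± 0.06 (adjusted p = 0.068), and of the 15 genes 2 rose and 7 fell. Of 19 genes for general polyadenylation 17 fell and 1 rose between day 1 and day 15 (median -0.54), CPSF1 most (-1.39 ± 0.06). Of 10 genes for decay of histone messenger RNA 6 fell and 3 rose, among them LSM4 (-1.33 ± 0.04) and the exonuclease gene XRN1 (0.48 ± 0.09).

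Replacement histones were captured at far higher counts than the clustered genes. H3F3A was 531, 520 and 478 CPM on day 1 and 464, 494 and 480 CPM on day 15 (-0.09 ± 0.06, adjusted p = 0.22), and H3F3B changed by -0.08 ± 0.05 (adjusted p = 0.15). H2AFZ, the H2A.Z variant, fell from 561, 544 and 545 CPM to 236, 224 and 244 CPM (-1.23 ± 0.05), and H2AFX, the variant marked at DNA breaks, fell by 1.42 ± 0.09. H1F0, the replacement linker histone, was 155, 155 and 157 CPM on day 1, 111, 105 and 118 CPM on day 4, 201, 206 and 206 CPM on day 8 and 74.9, 81.8 and 61.1 CPM on day 15, so it rose from day 4 to day 8 (0.87 ± 0.08) and fell to day 15 (-1.49 ± 0.08). H2AFJ rose from day 8 to day 15 (0.53 ± 0.10, adjusted p = 5.5e-05). Of the 11 replacement histone genes tested 0 rose and 8 fell between day 1 and day 15 (median -0.49). Among 18 histone chaperones 14 fell and 2 rose, with ASF1B (-2.35 ± 0.08), HJURP (-1.80 ± 0.05), CHAF1A (-1.73 ± 0.06) and NASP (-1.67 ± 0.05) falling most.

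Parts of the labelled course were visible in its markers, beside genes of other lineages. TBXT and CDX2, genes of neuromesodermal progenitors, were 23.7 and 490 CPM on day 0, and TBXT was 0 on days 4, 8 and 15. OLIG2, which marks motor neuron progenitors, stood at 62.5 CPM on day 4, at 93.7 on day 8 and at 24.9 on day 15. ISL1, a transcription factor of motor neurons, reached 12.6 CPM by day 8 and had 5.49 by day 15. All 14 pan-neuronal genes and 8 of 9 motor neuron genes rose from day 1 to day 15. From day 8 to day 15, 4 pan-neuronal genes rose and 7 fell, and 3 motor neuron genes rose and 5 fell. The list for mesoderm, endoderm and endothelium summed to 55.3 ± 1.3 CPM on day 1 and 415 ± 45 on day 8. It reached 1240 ± 440 CPM on day 10 and 801 ± 270 on day 15. From day 1 to day 15, 6 of its 10 tested genes rose and 2 fell. Of 10 glial genes 6 rose and 2 fell, and of 6 neural crest genes 1 rose and 4 fell. STMN2, a neuronal gene, was 250 CPM on day 0, 6.33 on day 1 and 602 on day 15, so day 0 did not lack it, and PAX6, a neural progenitor gene, was 0.215 CPM on day 0 although its label calls those cells neural progenitors. Between day 1 and day 15 CDKN1C, a cyclin-dependent kinase inhibitor, rose by 2.22 ± 0.10, with 8 of 10 genes for cell cycle exit rising and 2 falling. The part of the cells' make-up in the histone results was not tested.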

How the data were processed

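Polyadenylated RNA of 45 libraries (3 for each of 15 days) was extracted with a Qiagen RNeasy Plus Micro kit and made into libraries with a KAPA mRNA kit, per the labels' protocols. The authors used bcl2fastq 2.20.0, RSEM and GRCh38, per the submitters' processing notes; no source used here gives the aligner, the annotation or the strand setting. The tables deposited by the authors hold RSEM expected counts and TPM for 58233 genes, of which 57895 identifiers are in GENCODE 29. Samples were grouped by the day in their labels. Expected counts were rounded to whole numbers (92.9% already were) and tested with edgeR 4.0.16 in R 4.3.3 (TMM, filterByExpr by day, robust quasi-likelihood F test, a term for each day over all 45 libraries, 30 residual degrees of freedom). Benjamini-Hochberg adjustment ran over 19436 genes and rose and fell mean higher and lower at an adjusted p below 0.05. Errors beside log2 changes are SE, others SD. A single gene tested alone by exact permutation of 3 against 3 libraries could not go below p = 0.1.

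Named members were the 10 highest in mean CPM, up to 5 called members in each direction per comparison with the largest change (mean of at least 1 CPM on the higher day, libraries not overlapping), the highest in mean TPM of each family and cluster, and all HIST3 and HIST4 genes. Further members that rose from day 8 to day 15, and those behind other small counts, were named after their values were seen. From other lists the up to 4 called genes with the largest change and a set panel were eligible. The members and lists were chosen with earlier results of these data known, and the small RNA list after the data were seen. Other tests used limma 3.58.1 on log2(TPM + 1) and log2(TPM + 0.1) and DESeq2 1.42.0. The scripts were tested on simulated data. Transcript sequences are from GENCODE 29 and promoters from RefSeq.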

Additional observations from a re-analysis of the deposited data

How the results depend on the processing

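With DESeq2 size factors in edgeR all 169 changes of named genes kept direction and call, and with DESeq2's test 163 did and 6 lost the call. More calls were lost elsewhere: 60 were below 2-fold, 26 were lost in the fit of the 2 days alone, 20 without a filter, 26 and 34 with limma at pseudocounts of 1 and 0.1 (beside 4 reversed in each), and 27, 44 and 36 without replicates 1, 2 and 3. Among the single libraries left out, day 4 replicate 2 cost the most, 19 calls, with 36 kept. Counts of members that rose or fell moved by over 1.5 times as follows, where the cause was not tested. From day 1 to day 4 (4 rose, 3 fell), 2 rose with the replicate block, 1 rose in a fit of the 2 days alone, 1 fell with DESeq2, and 1 rose and 1 fell by at least 2-fold. From day 4 to day 8 (2 rose, 47 fell), 1 rose without a filter, with the block and in the fit of the 2 days alone and 0 rose by at least 2-fold, while 11 fell in the fit of the 2 days alone and 31 with limma on log2(TPM + 0.1). From day 8 to day 15 (9 rose, 17 fell), 5 rose and 9 fell without a filter, 4 rose by at least 2-fold, 27 fell in the fit of the 2 days alone, and 10 and 9 fell with limma at pseudocounts of 1 and 0.1. Leaving out replicates, either 1 number in all days or, added after seeing the data, single libraries of the compared days, gave 34 to 58 rises from day 0 to day 1, 1 to 9 rises and 0 to 17 falls from day 1 to day 4, 1 to 3 rises and 7 to 53 falls from day 4 to day 8, and 4 to 8 rises and 4 to 12 falls from day 8 to day 15. No named change reversed when a replicate was left out. With limma on TPM, which divides by the length of the assigned models, HIST1H3E from day 1 to day 15 reversed to -0.08 and -0.07 (pseudocounts 1 and 0.1), HIST1H2BE from day 8 to day 15 to -0.72 and -0.83, LSM10 from day 1 to day 15 to 0.01 and 0.01 and ZNF473 to 0.02 and 0.02. With identical copies summed, an alternative added after seeing the data, all 162 named changes that could be compared kept direction and call.

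Same-numbered libraries did not deviate together (correlations -0.034 to 0.071), so the replicate numbers do not pair the samples. With the replicate block 165 named changes kept their call and 4 lost it. Many members hold few counts (47 of 71 reached a mean of 1 CPM), which limits what could be called.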
